A study of Homo sapiens with 12 samples.

Results

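The genes described here are the 9 sensors and first effectors of the unfolded protein response and kinases of eIF2alpha, namely ERN1, XBP1, ATF6, ATF6B, MBTPS1, EIF2AK1, EIF2AK2, EIF2AK3 and EIF2AK4. They were chosen for their role, not for a measured value. Open chromatin had been mapped by ATAC-seq, in which a transposase (Tn5) cuts accessible DNA, in KO-52, an established acute myeloid leukemia (AML) cell line that the study describes as carrying biallelic CEBPA mutations. Peaks of 6 lists were merged into 355515 common regions, and 207 of them lay within the GENCODE gene body of a member or 25 kb on either side. Windows were described among 20033 protein-coding genes of the annotation.

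KO-52 cells had been transduced with an empty vector (EV), with p42, the full-length isoform of C/EBP-alpha, or with p30, the shorter isoform produced by CEBPA-mutant AML. Each line was given DMSO or tunicamycin (Tm) at 2 µg/mL for 8 h. Tunicamycin blocks N-glycosylation and so causes endoplasmic reticulum (ER) stress. Every one of the 6 conditions had 2 replicates of 50000 nuclei, and all 12 libraries share the mutated endogenous CEBPA of the line. The study's methods describe KO-52 cells with stable p42-ERT2 or p30-ERT2 fusions, sorted for GFP, and others with transiently expressed isoforms. ERT2 is an estrogen receptor domain that keeps a fusion protein out of the nucleus until 4-OHT is given. The study calls the cells profiled by ATAC-seq transduced, which in its methods are the ERT2 fusions, whereas the transient isoforms were electroporated. Its methods state that cells with ERT2 fusions, and empty vector controls, were given 4-OHT before an experiment. The sample labels name neither the construct nor 4-OHT, and how much of each isoform was nuclear is not shown by these data. The authors called the peaks on the pooled replicates of a condition, so each condition is 1 list with no replicate error. Differences below are therefore differences between lists, without a test, and a missing peak says only that no region passed the threshold at that depth.

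Misfolded protein in the ER lumen is sensed by IRE1 (ERN1), ATF6 and PERK (EIF2AK3). IRE1 splices XBP1 mRNA, ATF6 is cut by the Golgi proteases S1P (MBTPS1) and S2P to release a transcription factor, and PERK phosphorylates eIF2alpha. PERK, HRI, PKR and GCN2 all phosphorylate the same serine of eIF2alpha in response to different stresses, which lowers general translation and favours translation of ATF4, a bZIP factor that can bind DNA together with C/EBP proteins.

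The lists held 187704 to 254239 peaks and an estimated 2.22e+07 to 3.00e+07 tags, least in EV cells in DMSO and most in p42 cells in DMSO. Depth and the number of peaks thus moved together with the line and the treatment, and their part in the differences was not tested. Promoters of 10 of 10 myeloid and leukocyte marker genes had a peak in each list, as had 4 to 5 of 7 genes of other cell types. HBB and MS4A1, markers of erythroid and B cells, had no promoter peak in any list, but CD3D and EPCAM had one in each. Expression was not analysed here, so a promoter peak is not read as expression of the gene.

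Sequences shown first are those of the regions on which the account turns. The C/EBP-ATF composite element TGATGCAA, which ATF4 binds with a C/EBP partner, was searched on both strands within 100 bases of the strongest summit of each region, and 4 of the 207 regions held it (1.93%, 95% Wilson interval 0.754 to 4.86, against 1.25% of all regions). Such intervals cover counting error only. Windows of 201 bases (hg38) are printed, in lower case with the element or its reverse complement TTGCATCA in capitals.
ERN1 region 17, chr17:64082226-64082426, + strand: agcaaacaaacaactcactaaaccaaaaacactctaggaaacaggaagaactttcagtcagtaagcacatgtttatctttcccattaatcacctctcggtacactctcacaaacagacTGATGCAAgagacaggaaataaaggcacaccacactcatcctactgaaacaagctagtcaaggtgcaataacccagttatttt
XBP1 region 6, chr22:28799283-28799483, + strand: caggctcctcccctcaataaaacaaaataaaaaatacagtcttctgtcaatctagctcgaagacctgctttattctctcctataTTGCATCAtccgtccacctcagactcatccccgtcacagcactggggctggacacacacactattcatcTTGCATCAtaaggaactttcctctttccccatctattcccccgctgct
ATF6 region 13, chr1:161816378-161816578, + strand: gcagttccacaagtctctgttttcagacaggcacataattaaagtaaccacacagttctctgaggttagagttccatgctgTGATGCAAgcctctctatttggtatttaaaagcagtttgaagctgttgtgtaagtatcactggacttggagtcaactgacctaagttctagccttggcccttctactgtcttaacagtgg
EIF2AK1 region 3, chr7:6016060-6016260, + strand: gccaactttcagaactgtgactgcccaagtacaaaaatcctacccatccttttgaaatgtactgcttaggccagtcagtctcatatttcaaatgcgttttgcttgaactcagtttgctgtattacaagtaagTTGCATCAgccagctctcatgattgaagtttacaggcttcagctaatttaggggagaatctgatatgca

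Of the 9 genes, 8 had an entry in the table of RefSeq promoters (GRCh38.p14, 250 bases before to 50 after the start). Promoters of XBP1 and EIF2AK2 are shown on the strand of the gene because they held a known stress element. In XBP1 the capitals mark an ER stress response element (ERSE), CCAAT, 9 bases, CCACG, which was present in 0.0769% of 35116 RefSeq promoters. In EIF2AK2 they mark the core of an interferon-stimulated response element (ISRE), GAAA, 2 bases, GAAA, present in 3.57% of promoters.
XBP1 promoter, chr22:28800520-28800819, - strand: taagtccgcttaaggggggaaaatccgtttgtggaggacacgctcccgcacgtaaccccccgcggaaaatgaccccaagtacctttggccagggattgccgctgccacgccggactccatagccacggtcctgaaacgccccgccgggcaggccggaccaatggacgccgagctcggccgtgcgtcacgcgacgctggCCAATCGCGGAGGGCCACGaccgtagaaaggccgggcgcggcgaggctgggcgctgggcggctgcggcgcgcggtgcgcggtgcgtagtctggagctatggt
EIF2AK2 promoter, chr2:37156931-37157230, - strand: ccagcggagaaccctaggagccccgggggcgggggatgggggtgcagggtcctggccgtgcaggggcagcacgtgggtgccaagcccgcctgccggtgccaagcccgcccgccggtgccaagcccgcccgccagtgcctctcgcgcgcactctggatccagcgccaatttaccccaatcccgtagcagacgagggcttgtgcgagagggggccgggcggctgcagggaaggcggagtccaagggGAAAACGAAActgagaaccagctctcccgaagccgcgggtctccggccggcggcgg
Promoters of ATF6B and EIF2AK4 held the AP-1 letters TGANTCA, as did 7.71% of all promoters. Entries of ERN1, ATF6, MBTPS1 and EIF2AK3 held none of the letters searched. Besides those named above, these were TGACGTGG (the core of the unfolded protein response element), the cAMP response element TGACGTCA, and the C/EBP sites TTGCGCAA and TTGCACAA. TGACGTGG and TGACGTCA share their first 6 letters, and a match is a description of letters, not of binding.

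Each of the 9 genes had a promoter peak in all 6 lists, as had 76.4% of all protein-coding genes. Strength is given as a percentile, the percentage of peaks of the same list with a lower −log10 q, and as the tags at the summit, solved from the deposited fold enrichment and p-value. The main promoter region of a gene is the one with the highest mean percentile among those within 1000 bp of an annotated start. Percentiles of these regions ranged from 66.9 to 99.8, and from 79.0 upwards without ATF6. Taking the highest promoter percentile of a gene, the median over all protein-coding genes was 84.2 to 88.2 in the 6 lists. ATF6 ranked above 35.3% to 40.5% of genes and so below that median in every list, and XBP1 was below it in both p42 lists. Scaled to equal depth, the 95% Poisson intervals of the tags in DMSO and Tm overlapped in 27 of 27 pairs of gene and line. They were apart in only 0.00559%, 0.00590% and 0.0124% of all regions with both peaks in EV, p42 and p30 cells. Such overlap, here and below, therefore says little about whether a difference is absent. The median percentile difference of Tm minus DMSO over the 9 promoters was 1.50 in EV, −0.520 in p42 and −0.383 in p30 cells. Percentiles in Tm exceeded those in DMSO for 6 genes in EV cells, 3 in p42 cells and 3 in p30 cells. For EIF2AK3 these medians and counts use a far upstream start. The region at its RefSeq start differed in the other direction in EV cells (98.3 in DMSO, 99.1 in Tm) and p42 cells (97.4 in DMSO, 95.1 in Tm).

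**Figure D1:**
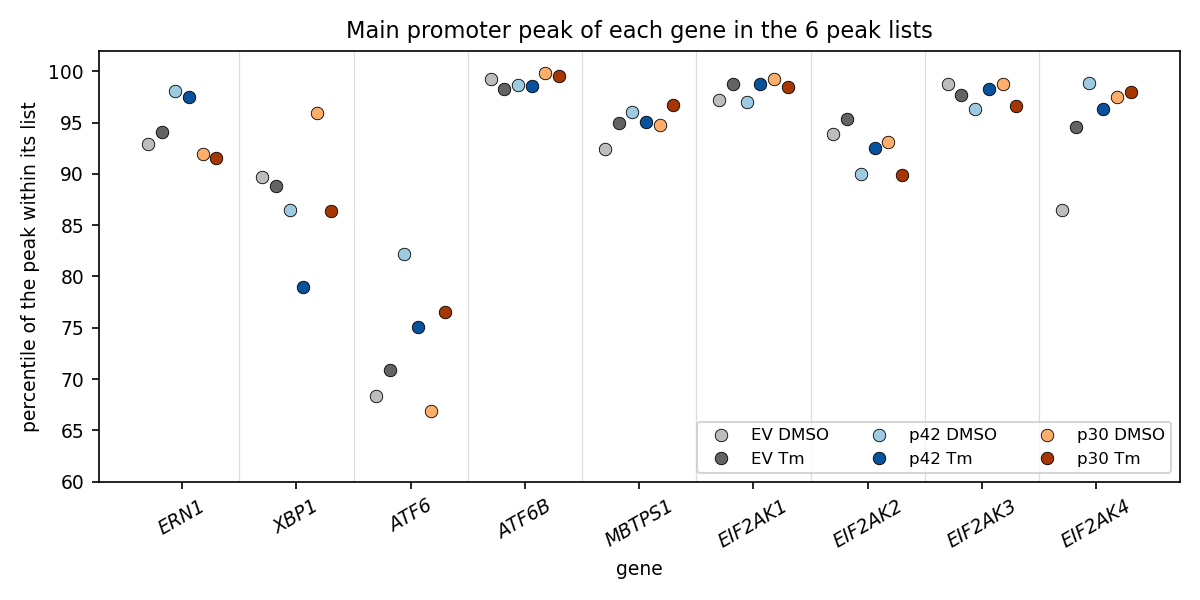
Percentile within its list (vertical axis, 60 to 100) of the main promoter peak of each of the 9 genes (horizontal axis), 1 point for each of the 6 lists, with no replicate error. ATF6 has the lowest points (66.9 to 82.2), and XBP1, ATF6 and EIF2AK4 spread most widely across the lists.

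In the IRE1 branch, ERN1 encodes IRE1, the kinase and endoribonuclease of the ER membrane (ENSG00000178607.17, chr17:64039080-64130819, - strand). Its window held 35 regions, 13 of them in all 6 lists. The percentile of the main promoter region, chr17:64129609-64130718, was 92.9 in DMSO and 94.1 in Tm in EV cells, 98.0 in DMSO and 97.5 in Tm in p42 cells and 91.9 in DMSO and 91.5 in Tm in p30 cells. The tags at its summit were 37 in DMSO and 40 in Tm in EV cells, 49 in DMSO and 46 in Tm in p42 cells and 38 in DMSO and 37 in Tm in p30 cells. Both p42 lists were therefore above the EV and p30 lists in percentile, but the 95% Poisson intervals of the depth-scaled tags overlapped between all 6 lists. ERN1 region 32 (chr17:64145531-64146405), −15026 bp from the 5′ end of the gene, was the strongest outside promoters, and its percentiles from 96.7 to 97.7 differed little between lists.

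Region 17 of ERN1 (chr17:64081915-64082482) lies in an intron, 400 bp from an internal annotated start, and held a composite element 18 bp from its summit. Its percentile was 58.8 in DMSO and 79.6 in Tm in EV cells, 68.8 in DMSO and 68.9 in Tm in p42 cells and 71.4 in DMSO and 92.3 in Tm in p30 cells. Tags at the summit were 11 in DMSO and 20 in Tm in EV cells, 14 in DMSO and 14 in Tm in p42 cells and 15 in DMSO and 28 in Tm in p30 cells. The Tm lists of EV and p30 cells were thus above their DMSO lists, and the p42 lists had equal tags. Scaled to equal depth, the tags in p42 cells were 10.4 in DMSO and 12.2 in Tm. Those in p30 cells were 12.6 in DMSO (interval 7.04 to 20.7) and 27.0 in Tm (interval 17.9 to 39.0), with overlapping intervals. The region lies 48493 bp from the 5′ end of the gene.

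Between 54300 and 55456 bp from the 5′ end of ERN1, a group of intronic regions had peaks in different lists. Regions 12 (chr17:64075345-64075460) and 15 (chr17:64076451-64076560) had peaks only in p42 cells, at percentiles of 48.9 and 59.2 in DMSO and 37.5 and 12.5 in Tm. Region 14, between them, had peaks only in Tm, in EV cells (percentile 35.6, 8 tags) and p30 cells (48.0, 10 tags). Region 13 had a peak only in p42 cells in Tm (48.7, 11 tags) and p30 cells in DMSO (33.4, 7 tags). The C/EBP site TTGCACAA lay −73 bp from the summit of region 12, outside the region itself. Region 15 held the AP-1 letters. Also present in both p42 lists alone were region 8 beyond the 3′ end of the gene and region 19 in an intron.

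Region 35 of ERN1 (chr17:64154488-64154638) was the 1 region of the 207 lost with Tm in all 3 lines, against 0.505% of all regions. Lost means a peak in the DMSO list of a line and none in its Tm list, and gained the reverse. Its percentile in DMSO was 43.8 in EV, 49.4 in p42 and 33.4 in p30 cells, from 8, 9 and 7 tags. It lies near a start of TEX2, the neighbouring gene, rather than near ERN1.

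**Figure D2:**
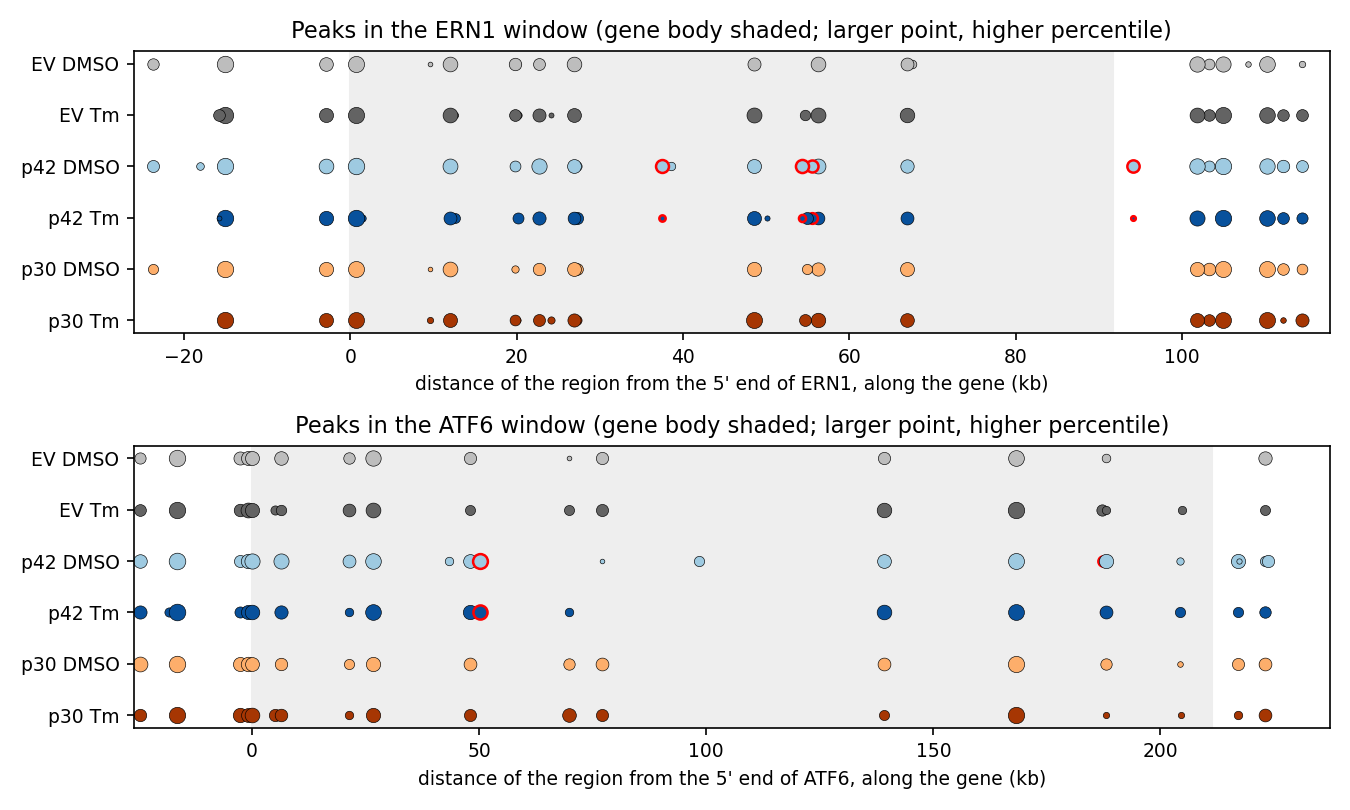
Peaks of the 6 lists (rows) in the windows of ERN1 (upper panel) and ATF6 (lower panel) by distance from the 5′ end of the gene in kb, with the gene body shaded and larger points for higher percentiles. Red outlines mark regions with a peak in both p42 lists and no other, which are 4 in the ERN1 window and 2 in the ATF6 window.

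XBP1 encodes the transcription factor whose mRNA IRE1 splices (ENSG00000100219.17, chr22:28794555-28800597, - strand), and 20 regions lay in its window. The main promoter region, chr22:28800086-28801017, contains the ERSE printed above and was the only one of the 207 regions with an ERSE within 100 bases of its summit (0.483%, against 0.0118% of all regions). Its percentile was 89.7 in DMSO and 88.8 in Tm in EV cells, 86.5 in DMSO and 79.0 in Tm in p42 cells and 95.9 in DMSO and 86.4 in Tm in p30 cells. Its tags were 36 in DMSO and 39 in Tm in EV cells, 38 in DMSO and 32 in Tm in p42 cells and 45 in DMSO and 36 in Tm in p30 cells. In p42 and p30 cells the percentile differed by −7.45 and −9.55 points (Tm minus DMSO), but the scaled tags of Tm over DMSO were at a ratio of 0.993 and 0.920.

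Region 8 of XBP1 (chr22:28801462-28801656), −1027 bp from the 5′ end, is a weaker neighbour of the promoter. It had no peak in DMSO in EV or p42 cells and a peak in the other 4 lists. In Tm its percentile was 25.2 in EV cells (15 tags) and 47.8 in p42 cells (19 tags), and in p30 cells it was 2.91 in DMSO (10 tags) and 33.2 in Tm (16 tags). It was thus gained in EV and p42 cells and had a peak in both lists of p30 cells, where it was close to the bottom of the list in DMSO. In p30 cells the intervals of the scaled tags in DMSO (4.02 to 15.4) and Tm (8.82 to 25.1) overlapped. The Tm list was the higher of each pair.

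Region 6 of XBP1 (chr22:28799358-28799612), in an intron 750 bp from an annotated start, held 2 composite elements, at −16 and 53 bp from its summit. It had a peak only in p42 cells, with 16 tags in DMSO and 16 in Tm and percentiles of 28.8 and 27.1. Region 4, chr22:28792309-28792428, beyond the 3′ end of the gene, showed the opposite pattern, with a peak in each EV and p30 list (percentiles 12.4 to 46.1) and in neither p42 list. It was the 1 region of the 207 with that pattern, which 0.802% of all regions showed. The reverse pattern, a peak in every list but the p30 lists, was seen in 0 of 207 regions, which allows a share of up to 1.45% (3 counts of the total), against 0.462% of all regions. Adjacent to region 4, region 5 was the strongest outside promoters of XBP1, at percentiles of 80.3 to 94.9.

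**Figure D3:**
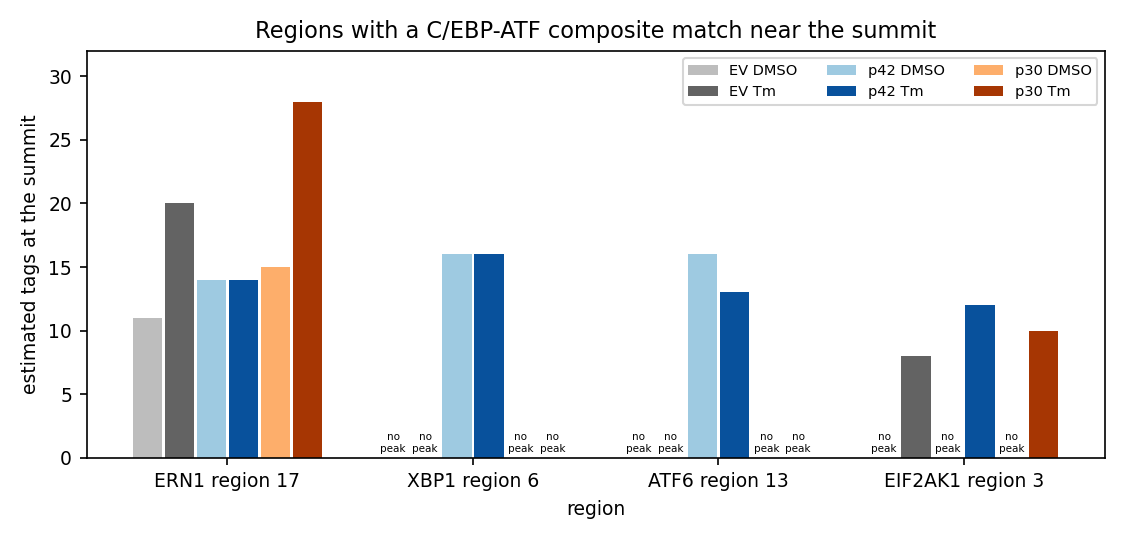
Estimated tags at the summit (vertical axis) in the 6 lists (bars) for the 4 regions (horizontal axis) with a C/EBP-ATF composite element near the summit, without replicate error. XBP1 region 6 and ATF6 region 13 have peaks only in p42 cells, EIF2AK1 region 3 only in the 3 Tm lists, and ERN1 region 17 reaches 28 tags in p30 cells in Tm.

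In the ATF6 branch, ATF6 encodes the membrane-bound precursor of a bZIP transcription factor (ENSG00000118217.7, chr1:161766298-161977574, + strand), with 30 regions in its window. Its main promoter region, chr1:161766169-161766864, was the weakest of the 9 promoters. Its percentile was 68.4 in DMSO and 70.9 in Tm in EV cells, 82.2 in DMSO and 75 in Tm in p42 cells and 66.9 in DMSO and 76.5 in Tm in p30 cells. Its tags were 18 in DMSO and 21 in Tm in EV cells, 25 in DMSO and 21 in Tm in p42 cells and 18 in DMSO and 23 in Tm in p30 cells. In p30 cells the scaled tags of Tm over DMSO were at a ratio of 1.47, the furthest from 1 among the 27 pairs, with overlapping intervals. A second promoter region, region 5, lay −897 bp from the 5′ end, with a peak in all 6 lists. In p30 cells its percentile was the lower one in Tm, at 74.25 in DMSO and 68.0 in Tm (21 and 19 tags). It was above the main promoter region in both EV lists and in p30 cells in DMSO. A region within the gene was stronger than the promoter in every list, namely region 18 (chr1:161934130-161934497), in an intron 168094 bp from the 5′ end, at percentiles of 88.2 to 96.8.

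Region 13 of ATF6 (chr1:161816316-161816574), in an intron 50180 bp from the 5′ end, was the strongest region present in p42 cells alone. It had 16 tags in DMSO and 13 in Tm, at percentiles of 77.4 and 69.9, and no peak in EV or p30 cells. A composite element lay −19 bp from its summit. With a −log10 q of 15.4 in DMSO it was the 1 member region with a −log10 q of at least 10 in p42 cells and no peak at all in p30 cells in DMSO. Region 7 of ATF6, in an intron, was gained in EV cells (percentile 25.7, 9 tags) and p30 cells (51.9, 12 tags) and had no peak in p42 cells.

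ATF6B encodes a close relative of ATF6 (ENSG00000213676.13, chr6:32115264-32128253, - strand). Its promoter region, chr6:32128148-32128534, had the highest mean percentile of the 9, but EIF2AK1 or EIF2AK4 was above it in EV cells in Tm and in both p42 lists. Percentiles were 99.2 in DMSO and 98.3 in Tm in EV cells, 98.7 in DMSO and 98.6 in Tm in p42 cells and 99.8 in DMSO and 99.6 in Tm in p30 cells. Tags at its summit were 50 in DMSO and 48 in Tm in EV cells, 53 in DMSO and 49 in Tm in p42 cells and 59 in DMSO and 53 in Tm in p30 cells. Of the 19 regions in its window 7 were present in all 6 lists, and several lay within the neighbouring gene TNXB. Region 5 (chr6:32105585-32105704) in TNXB was at percentiles of 80.0 in DMSO and 51.3 in Tm in EV cells, 86.4 in DMSO and 67.8 in Tm in p42 cells and 68.0 in DMSO and 40.1 in Tm in p30 cells. The Tm percentile was the lower one in each line, with overlapping intervals of the tags. Region 1 of ATF6B was present in p42 cells alone (percentiles 61.1 and 28.5).

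MBTPS1 encodes S1P, the site-1 protease that also processes SREBP factors (ENSG00000140943.18, chr16:84053761-84116942, - strand). Its main promoter region, chr16:84116366-84117468, had percentiles of 92.5 in DMSO and 95 in Tm in EV cells, 96.1 in DMSO and 95.1 in Tm in p42 cells and 94.8 in DMSO and 96.7 in Tm in p30 cells. The tags there were 38 in DMSO and 43 in Tm in EV cells, 46 in DMSO and 43 in Tm in p42 cells and 43 in DMSO and 45 in Tm in p30 cells. A small region, −697 bp from the start, region 20 (chr16:84117595-84117681), was lost in EV cells (12 tags in DMSO) and p42 cells (17 tags in DMSO) and had no peak in p30 cells. In a coding exon, region 9 (chr16:84065643-84065809) had percentiles of 60.2 in DMSO and 91.2 in Tm in EV cells, 90.2 in DMSO and 84.7 in Tm in p42 cells and 82.1 in DMSO and 80.6 in Tm in p30 cells, lowest in EV cells in DMSO. It was chosen after its values were seen, as was region 11, an intronic region with the core of the unfolded protein response element 4 bp before its summit (percentiles 68.2 to 82.7). Region 7 of MBTPS1 was the 1 member region present in both EV lists and no other (percentiles 40.1 and 1.40), against 0.558% of all regions.

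Among the 4 eIF2alpha kinases, EIF2AK1 encodes HRI, which responds to heme shortage and mitochondrial stress (ENSG00000086232.13, chr7:6022247-6059175, - strand). Its promoter region, chr7:6058587-6059391, had percentiles of 97.2 in DMSO and 98.8 in Tm in EV cells, 97.0 in DMSO and 98.8 in Tm in p42 cells and 99.2 in DMSO and 98.4 in Tm in p30 cells. Tags there were 36 in DMSO and 43 in Tm in EV cells, 39 in DMSO and 42 in Tm in p42 cells and 45 in DMSO and 40 in Tm in p30 cells. The window held only 12 regions, the fewest of the 9 genes. It lost none in EV or p42 cells, against 10.1% and 21.6% of all regions.

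Region 3 of EIF2AK1 (chr7:6015871-6016227) was the 1 region of the 207 gained with Tm in all 3 lines, against 0.202% of all regions. It had no peak in any DMSO list, and 8 tags in EV, 12 in p42 and 10 in p30 cells in Tm. Percentiles in the Tm lists were 42.4, 66.4 and 53.6. Its composite element, on the minus strand, lay 32 bp from the summit. It is 10392 bp from the nearest start of EIF2AK1, beyond the 3′ end of that gene and within AIMP2, a neighbouring gene, so the window alone ties it to EIF2AK1. With a −log10 q of 10.9 in p42 cells, it was also the 1 member region gained in any line at a −log10 q of at least 10.

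Across the whole series, 4459 regions held the composite element. Of these, 1.12% were gained in all 3 lines, against 0.202% of all regions, and 12.9% had peaks in both p42 lists alone, against 4.58% of all regions. The 4 member regions thus include examples of both patterns, 1 of the former and 2 of the latter. The other, ERN1 region 17, had a peak in all 6 lists.

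EIF2AK2 encodes PKR, which is activated by double-stranded RNA and is itself interferon-inducible (ENSG00000055332.19, chr2:37099210-37157522, - strand). The main promoter region, chr2:37156420-37157507, contains the ISRE core printed above. Its percentile was 93.9 in DMSO and 95.4 in Tm in EV cells, 90.0 in DMSO and 92.5 in Tm in p42 cells and 93.1 in DMSO and 89.9 in Tm in p30 cells. Tags at this summit were 36 in DMSO and 39 in Tm in EV cells, 35 in DMSO and 35 in Tm in p42 cells and 38 in DMSO and 33 in Tm in p30 cells. In an intron 2523 bp from the 5′ end, region 10 (chr2:37154891-37155187) had percentiles of 41.3 in DMSO and 77.1 in Tm in EV cells, 41.4 in DMSO and 40.6 in Tm in p42 cells and 45.8 in DMSO and 69.9 in Tm in p30 cells. The tags of region 10 were 14 in DMSO and 25 in Tm in EV cells, 14 in DMSO and 13 in Tm in p42 cells and 15 in DMSO and 21 in Tm in p30 cells. Scaled to equal depth, the tags were higher in Tm in all 3 lines, at 10.4 in DMSO and 11.4 in Tm in p42 cells, with overlapping intervals in each line. Regions 2 and 5, which lie in the neighbouring genes HEATR5B and GPATCH11, were gained in p42 cells and lost in EV and p30 cells.

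EIF2AK3 encodes PERK, the ER-resident kinase (ENSG00000172071.15, chr2:88556741-88691518, - strand). GENCODE extends the gene to a far upstream start that it shares with RPIA, a neighbouring gene on the other strand, and the main promoter region by the rule was there (chr2:88691268-88692116). Its percentile was 98.7 in DMSO and 97.7 in Tm in EV cells, 96.3 in DMSO and 98.3 in Tm in p42 cells and 98.7 in DMSO and 96.6 in Tm in p30 cells. The RefSeq start lies in region 16 (chr2:88627086-88628297), with percentiles of 98.3 in DMSO and 99.1 in Tm in EV cells, 97.4 in DMSO and 95.1 in Tm in p42 cells and 98.6 in DMSO and 97.7 in Tm in p30 cells. Tags in region 16 were 53 in DMSO and 61 in Tm in EV cells, 55 in DMSO and 49 in Tm in p42 cells and 57 in DMSO and 55 in Tm in p30 cells. The highest tags of any peak in the 9 windows, 61, were found there in EV cells in Tm.

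Within the EIF2AK3 gene, region 7 (chr2:88591150-88591341) was the strongest outside promoters. Percentiles there were 84.0 in DMSO and 79.9 in Tm in EV cells, 98.3 in DMSO and 95 in Tm in p42 cells and 91.1 in DMSO and 80.6 in Tm in p30 cells. Its tags were 18 in DMSO and 17 in Tm in EV cells, 32 in DMSO and 26 in Tm in p42 cells and 23 in DMSO and 17 in Tm in p30 cells. Both p42 lists were above the other 4, with intervals of the scaled tags that overlapped those of EV cells in DMSO (10.7 to 28.4). Regions 10 and 35 had peaks in p42 cells alone, and region 11 in p30 cells alone (percentiles 8.80 and 33.2), the 1 member region of that kind, against 0.617% of all regions. The window lost 9 of its 35 regions in p42 cells (25.7%, against 21.6% of all regions) and gained 3. The strongest of those lost was region 32 (chr2:88693966-88694194) in RPIA, with 23 tags in DMSO and no peak in the other 5 lists.

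EIF2AK4 encodes GCN2, which senses uncharged tRNA during amino acid shortage (ENSG00000128829.12, chr15:39934115-40035591, + strand). Its promoter region, chr15:39933643-39934768, had percentiles of 86.5 in DMSO and 94.6 in Tm in EV cells, 98.9 in DMSO and 96.3 in Tm in p42 cells and 97.5 in DMSO and 98.0 in Tm in p30 cells. Tags there were 27 in DMSO and 35 in Tm in EV cells, 46 in DMSO and 38 in Tm in p42 cells and 41 in DMSO and 40 in Tm in p30 cells. The EV list in DMSO was the lowest of the 6. Near the 3′ end of the gene, regions 10 and 11 were each stronger in p42 cells in DMSO (percentile 81.7 in both) than in EV cells (51.1 and 62.0) or p30 cells (43.2 and 65.2) in DMSO. Region 10 was at 80.6 in p30 cells in Tm, from 8 tags in DMSO to 17, with overlapping intervals of the scaled tags, and both regions were chosen after their values were seen. Region 9, in an intron (chr15:40008461-40008618), was lost in EV cells (11 tags in DMSO) and p30 cells (6 tags in DMSO) and kept a peak in both p42 lists.

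Over all windows, 85 of the 207 regions (41.1%) had a peak in all 6 lists, against 32.2% of all regions, and 50 had a peak in 1 list. Of the 207, 52 (25.1%) lay within 1000 bp of a protein-coding start, against 11.3% of all regions. Among those 52, 55.8% were in all 6 lists, against 55.0% of all such regions, and elsewhere 36.1%, against 29.3%. In EV cells 27 regions were gained with Tm (13.0%, interval 9.12 to 18.3), against 11.7% of all regions, and 21 lost (10.1%, interval 6.73 to 15.0), against 10.1%. In p42 cells 20 were gained (9.66%, interval 6.34 to 14.5), against 9.08%, and 34 lost (16.4%, interval 12.0 to 22.1), against 21.6%. In p30 cells 14 were gained (6.76%, interval 4.07 to 11.0), against 8.56%, and 20 lost (9.66%, interval 6.34 to 14.5), against 15.2%. The interval of the share lost in p30 cells ended below the share of all regions, and those of the other 5 shares held it. With the same number of peaks in each list, the share lost in p30 cells was 9.73% (interval 6.24 to 14.9), against 13.4% of all regions, which that interval held. With a depth-scaled threshold it was 10.1% (interval 6.60 to 15.0), against 15.4%. At a −log10 q of at least 2 it was 9.80% (interval 6.44 to 14.7), against 15.0%. Under both of these settings the interval ended below the share of all regions. The member regions lay more often at starts and were in more lists than all regions. Within 1000 bp of a protein-coding start, 7.69% were lost in p30 cells, against 10.6% of all such regions. Elsewhere 10.3% were lost, against 15.8%. In p42 cells 15.4% were lost at starts, against 13.3%, and 16.8% elsewhere, against 22.6%. The part of position and of the number of lists in the shares was not tested.

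**Figure D4:**
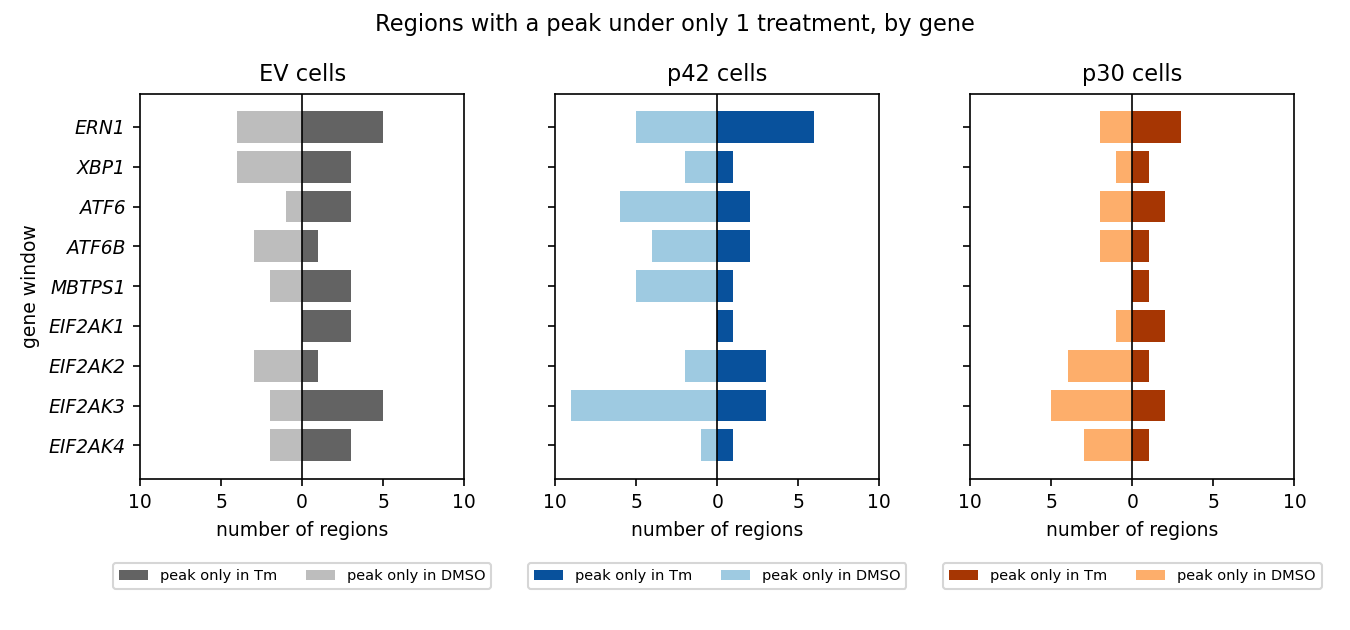
Number of regions (horizontal axis) in each gene window (vertical axis) with a peak only in Tm (right of 0) or only in DMSO (left of 0), for EV, p42 and p30 cells. The longest bar is that of EIF2AK3, whose window is among the 2 with most regions (35), with 9 lost in p42 cells. EIF2AK1, whose window has the fewest regions (12), lost none in EV or p42 cells.

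Gained and lost regions were weak. Gained peaks had a median of 8 tags in EV, 9 in p42 and 7.5 in p30 cells, and lost peaks a median of 7, 8 and 7, whereas the promoters had 18 to 59. Of the 103 regions gained or lost in any line, 12 were gained in at least 2 lines (5.80% of the 207, against 2.95% of all regions) and 12 lost in at least 2 (5.80%, against 5.75%). Gained in p42 cells and lost in p30 cells were 3 of the 207 (1.45%, against 1.10% of all regions). ERN1 gained 5, 6 and 3 of its 35 regions in EV, p42 and p30 cells and lost 4, 5 and 2 (11.4%, 14.3% and 5.71%). XBP1 gained 3, 1 and 1 of its 20 and lost 4, 2 and 1 (20%, 10% and 5%). Over all regions the shares gained were 11.7%, 9.08% and 8.56%, and those lost 10.1%, 21.6% and 15.2%. Of regions with a peak in both lists of a line, 56 of 101 had a higher percentile in Tm in EV cells, 37 of 119 in p42 cells and 39 of 110 in p30 cells. The 95% Poisson intervals of the scaled tags in DMSO and Tm did not overlap in 0 of 101 regions in EV, 0 of 119 in p42 and 0 of 110 in p30 cells, against 0.00559%, 0.00590% and 0.0124% of all regions with both peaks. The median percentile difference was 1.02 in EV, −4.39 in p42 and −2.06 in p30 cells, and over all regions of the series 0.752, −2.95 and −1.81.

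**Figure D5:**
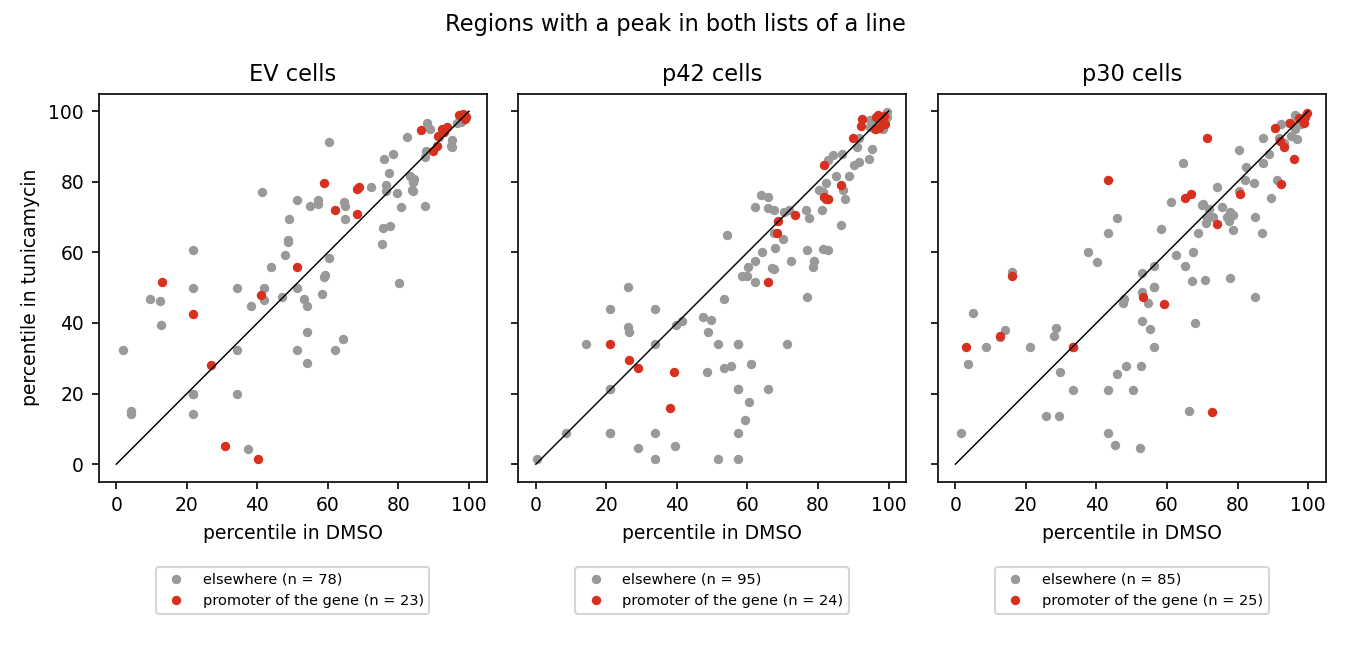
Percentile in tunicamycin (vertical axis) against percentile in DMSO (horizontal axis) for EV, p42 and p30 cells. Points are member regions with a peak in both lists of a line. Red marks every region within 1000 bp of a start of its gene, and the black line marks equal values. The main promoter regions lie at 79.0 or above on both axes, except that of ATF6 (66.9 to 82.2). Other red points lie as low as 1.40 in Tm (MBTPS1 region 7 in EV cells). In p42 cells 82 of 119 points lie below the line.

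Comparing lines in DMSO, 41 member regions were in the p42 list and absent from the p30 list (19.8%, interval 14.9 to 25.8), against 25% of all regions, and 18 had the reverse (8.70%, interval 5.57 to 13.3), against 11.8%. EIF2AK3 had 9 of the 41 (window of 35 regions), ATF6 7 (window of 30) and ERN1 6 (window of 35). Peaks in both p42 lists and in no other were found in 14 regions (6.76%, interval 4.07 to 11.0), against 4.58% of all regions. These were ERN1 regions 8, 12, 15 and 19, ATF6 regions 13 and 20, EIF2AK2 regions 7 and 13, EIF2AK3 regions 10 and 35, and 1 region each of XBP1, ATF6B, EIF2AK1 and EIF2AK4. All genes but MBTPS1 thus had at least 1. Their median percentile was 51.5 in DMSO and 10.6 in Tm, and over all regions of that pattern 37.7 and 26.2. A composite or C/EBP element lay within 100 bases of the summit of 3 of the 14, against 9.45% of all regions of that pattern. In ERN1 region 12 that element was outside the region itself. When each list was cut to the same number of peaks, 7 of 185 regions had the pattern (3.78%, against 3.06% of all regions), of which 6 were among the 14.

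Of 32 other genes of the pathway, 4 had a promoter region gained and 5 one lost in EV cells, 4 and 8 in p42 cells, and 3 and 3 in p30 cells. Over all genes the shares gained and lost were 16.3% and 13.7% in EV, 12.0% and 22.4% in p42, and 12.4% and 19.0% in p30 cells, so that 12.5% and 15.6%, 12.5% and 25%, and 9.38% and 9.38% of the 32 were of similar size or lower. Of the 9 genes described here, 3, 5 and 1 had a promoter region gained and 2, 3 and 2 one lost in the same order of lines. Except for that gained in p30 cells, these were larger shares than those of all genes. The 9 genes had 5 to 23 annotated starts and 2 to 7 promoter regions, and more regions give more occasions for a call. The part of these numbers was not tested. A promoter region lost in each line, not always the same one, was found for 3 of the 32 (9.38%), against 3.32% of all genes. These were TRAF2, the adaptor of IRE1, CREB3L1, an ATF6-related factor, and SREBF1, whose product is cut by S1P. They had 8, 5 and 7 promoter regions. A gene was counted if any of its promoter regions was lost, so genes with more regions had more occasions to be counted. The part of that number was not tested. In EV cells TRAF2 also had 2 promoter regions gained and SREBF1 had 1. The promoters of ATF4 and DDIT3, effectors of the eIF2alpha branch, gained and lost none, nor did those of HSPA5, the ER chaperone that holds the sensors inactive, of DNAJC3 or of the eIF2alpha phosphatase subunits PPP1R15A and PPP1R15B. HSPA5 had promoter percentiles of 98.3, 98.2 and 99.5 in DMSO and 95.5, 91.4 and 96.2 in Tm in EV, p42 and p30 cells. It was given values outside the set rule for naming genes. The promoter percentiles of PPP1R15A, PPP1R15B, DNAJC3, MBTPS2, CREB3L4 and DELE1 were also lower in Tm in each line. Those of GCN1 and SCAP were higher in Tm in each line. These differences were not tested.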

How the data were processed

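ATAC-seq libraries of KO-52 cells were grouped by line and treatment from the labels. The labels' processing notes name Trim Galore 0.6.6, Bowtie2 2.4.4, Picard, MACS2 and hg38. The authors called peaks on the pooled replicates of a condition. A shift of reads for the Tn5 cut and the genome size given to MACS2 are not given in the sources used here. The authors' fold enrichment is a ratio, tag pileup where a peak is highest over local background. Deposited beside it are −log10 of p and −log10 of q against that background, with a lowest −log10 q of 1.30. None is normalized between conditions, so values were ranked within a list. The pooled lists allow no test, and read counts per replicate were not analysed here.

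Peaks on chromosomes 1 to 22, X and Y that overlapped were merged (Python 3.11.15, numpy 2.4.6, scipy 1.17.1). A percentile is that of the strongest peak of a list in a region. Tags and background were solved from fold = (tags + 1) / (background + 1) and the Poisson p-value, and tags were whole for 100% of peaks. Total tags were estimated from the lowest background and a genome size of 2700000000 bp. Gene bodies, starts, exons and introns came from GENCODE, and promoter sequences from RefSeq (GRCh38.p14), whose 9 entries for 8 of the genes matched the hg38 sequence exactly. The functions were tested on simulated data. Members, gene lists and motifs were chosen with earlier results of these data known. Named regions of a gene are the main promoter region, the strongest outside promoters, those gained or lost in all 3 lines, the strongest gained and lost and that with the largest percentile difference in each line, and those present or absent in both lists of 1 line alone. Those with a motif printed above were added for their letters. Not all are described. Alternatives changed the window, the threshold, the number of peaks, the overlap and the ranking.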

Additional observations from a re-analysis of the deposited data

Results flagged for a closer look

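In 3 regions the p42 and p30 lists moved in opposite directions with Tm, with a peak gained in p42 cells and one lost in p30 cells, against 1.10% of all regions (1.45% of the 207). The difference was not tested. ERN1 region 13, intronic, was at a percentile of 48.7 in p42 cells in Tm and 33.4 in p30 cells in DMSO. EIF2AK2 region 2, within HEATR5B, was at 28.4 and 47.8, and EIF2AK2 region 5, within GPATCH11, at 12.9 and 12.3. Both EIF2AK2 regions were also lost in EV cells. The AP-1 letters lay 26 bp from the summit of region 5, across the end of the region. All were weak, with 7 to 16 tags.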

How the results depend on the processing

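No paired analysis was possible because the lists were called on pooled replicates and no test was made. Of 101 alternative counts, 76 were within 1.5 times the main count. With gene bodies only, gained regions numbered 12, 10 and 8 and lost regions 6, 16 and 11 in EV, p42 and p30 cells, with 19 in p42 and not p30 cells and 8 the reverse. With 10 kb on each side, 13 were gained in p42 cells, and 8 and 11 lost in EV and p30 cells. These windows hold fewer regions by construction. At a −log10 q of at least 10 where present, 0, 1 and 0 were gained and 0, 0 and 0 lost, with 1 in p42 and not p30 cells and 0 the reverse. With the same number of peaks in each list, 26 were in p42 and not p30 cells. For both p42 lists alone, 3 alternatives were chosen after seeing the data, and gave 7 with equal lists, 10 with a depth-scaled threshold and 11 at a −log10 q of at least 2. These were 3.78%, 5.03% and 5.39% of member regions, against 3.06%, 4.23% and 4.64% of all regions. For the other pathway genes, 500 bp promoters gave 2 gained and 3 lost in EV cells, and equal lists 2 gained and 4 lost in p42 cells. With equal lists, 14.1% and 13.0% of member regions were in p42 and not p30 cells or the reverse in DMSO, against 15.8% and 15.1% of all regions. With other rankings of promoter peaks, 2 to 3 of 27 differences between Tm and DMSO changed sign. Tags of 4 to 23 in gained and lost regions limit what their presence can show.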
